A study of Homo sapiens with 3 samples.

Results

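CDH1, CDH2, CDH3, CDH11, CDH13, CTNNB1, CTNNA1, CTNND1, VIM and NT5E are genes of cell-to-cell adhesion, the cytoskeleton and the cell surface whose exchange is followed when carcinoma cells move from an epithelial towards a mesenchymal state. They were picked by gene symbol, with no threshold on a measured value but with earlier results of these data known. They make up 10 of the 19220 genes of the deposited count table. The data are RNA-seq libraries of the oral squamous cell carcinoma line CAL27 and of drug-resistant derivatives of it, with 1 library per line analysed here. The parental CAL27 cells, labelled WT, grew without drug. CAL27/5FU, labelled 5-fluorouracil resistant, was kept in 10 μM 5FU, an antimetabolite that blocks thymidylate synthesis, and the study describes its selection by stepwise increases of the drug. CAL27/OXA was kept in 10 μM OXA, the platinum drug oxaliplatin. All 3 lines shared high-glucose DMEM with fetal bovine serum, and whether a resistant line came from 1 clone is not given in the sources used here. Resistance and the presence of the drug cannot be told apart, since each resistant line was sampled in its drug and CAL27 without.

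Classical cadherins are calcium-dependent transmembrane proteins that bind the same cadherin on the neighbouring cell. Their cytoplasmic tails hold p120-catenin, encoded by CTNND1, near the membrane and β-catenin, encoded by CTNNB1, further along, and α-catenin, encoded by CTNNA1, ties that complex to actin. In squamous epithelia E-cadherin (CDH1) and P-cadherin (CDH3) are the usual members, and the gain of N-cadherin (CDH2) with loss of E-cadherin is known as the cadherin switch. Vimentin (VIM) is the intermediate filament protein of mesenchymal cells, and NT5E encodes CD73, a surface enzyme that turns AMP into adenosine and serves as a marker of mesenchymal stromal cells.

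CDH2, VIM and NT5E were several-fold higher in both resistant lines than in CAL27, while CDH1 and CDH3 were within 2-fold of CAL27 in both. Even where CDH2 was highest, in CAL27/5FU, it gave 9.12% of the summed counts of CDH1 and CDH2. VIM counts were 27 in CAL27, against 863 in CAL27/5FU and 1395 in CAL27/OXA. CTNNB1, CTNNA1 and CTNND1 were also within 2-fold of CAL27, and among the 9 genes with enough counts the 2 resistant lines differed most in CDH2 and CTNNA1. No replicate check was made with the 1 labelled library per line used here, so the intervals below cover counting error only and no p-value is given.

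The libraries held between 37297713 and 43455488 counts, and 15275 to 15407 genes had at least 1 count. Counts were scaled with TMM factors, and log2 ratios were computed for genes that averaged at least 10 counts over the libraries (13676, called tested genes here). A gene was called higher or lower past 2-fold. Levels of different genes are compared in FPKM, which is per length. The 10 squamous keratinocyte markers had a summed FPKM of 7627 in CAL27, against 1946 in CAL27/5FU and 3306 in CAL27/OXA, and none was at or under 3 counts in any library. All 10 were more than 2-fold lower in CAL27/5FU (median log2 ratio -2.22) and 7 in CAL27/OXA (median -2.19).

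Of the 9 members that passed the filter, 3 were higher and 0 lower in CAL27/5FU than in CAL27, where 8.46% of all tested genes were higher and 6.72% lower. In CAL27/OXA against CAL27 the numbers were again 3 higher and 0 lower, where 6.54% of all tested genes were higher and 9.28% lower. The whole counting interval of each of these 3 genes was past 2-fold in both lines, as it was in either direction for 9.81% of all tested genes in CAL27/5FU and 10.2% in CAL27/OXA. These comparisons share the CAL27 library, so a low count there raises both ratios. Between CAL27/OXA and CAL27/5FU, 0 of the 9 were past 2-fold, where 4.18% of all tested genes were higher and 8.38% lower, or 12.6% in all (7.52% with the whole interval). The median log2 ratio of the 9 members was -0.13 in CAL27/5FU and 0.25 in CAL27/OXA, beside -0.0035 and 0.0055 over all tested genes. CDH11 did not pass the filter.

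**Figure D1:**
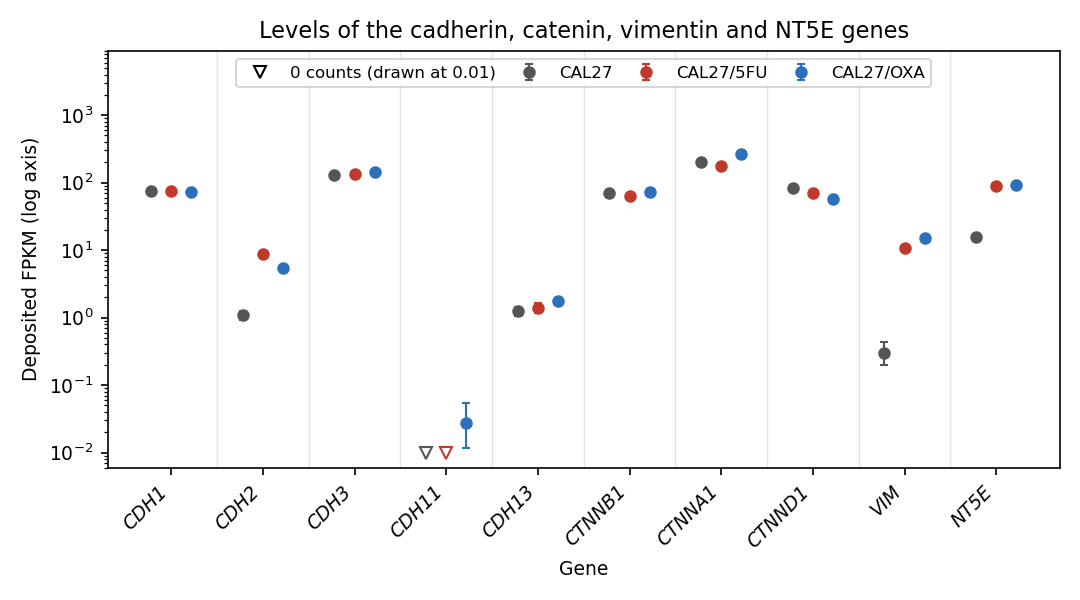
Deposited FPKM (log axis) of the 10 genes in the 3 libraries, with 1 point per library and bars for the 95% Poisson interval of the count. CDH2, VIM and NT5E lie lower in CAL27 than in both resistant lines, CDH1 stays between 73.0 and 75.9 FPKM, and open triangles mark CDH11 at 0 counts.

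In each library the order of levels began with CTNNA1 and then CDH3. In CAL27 these were followed by CTNND1, CDH1, CTNNB1, NT5E, CDH13, CDH2, VIM and CDH11. The 95% Poisson intervals of CDH13 (1.05 to 1.46 FPKM) and CDH2 (0.931 to 1.25 FPKM) overlapped there, so the order of this neighbouring pair is not firm. In CAL27/5FU the order after CDH3 was NT5E, CDH1, CTNND1, CTNNB1, VIM, CDH2, CDH13 and CDH11, with no overlap between neighbours. In CAL27/OXA it was NT5E, CTNNB1, CDH1, CTNND1, VIM, CDH2, CDH13 and CDH11, and CTNNB1 (72.5 to 75.3 FPKM) overlapped CDH1 (71.8 to 74.2 FPKM). NT5E thus stood behind all 3 catenins in CAL27 and behind CTNNA1 but ahead of the other 2 in both resistant lines, and VIM moved from below CDH13 to above CDH2.

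The stretch before the start of VIM is shown because VIM had the largest ratio of the set in both resistant lines. Promoter windows from RefSeq (GRCh38.p14) were matched for CDH2, CTNNB1, CTNNA1, VIM and NT5E, which is 5 of the 10 genes, and not for CDH1, CDH3, CDH11, CDH13 and CTNND1. In the GENCODE 29 annotation, exons cover all 250 bases of the NT5E, CTNNB1 and first listed CDH2 windows. They cover 142 to 250 bases of the CTNNA1 windows and 0 of the VIM window. The CDH2 and NT5E stretches below thus lie before the RefSeq start but within annotated exons. The 250 bases before the VIM start lie on the plus strand at chr10:17227991-17228240 and are printed 5′ to 3′ with the GC box GGGCGG in capitals. Stretches of 30 bases are printed for CDH2 on the minus strand (chr18:28177290-28177319) and NT5E on the plus strand (chr6:85450010-85450039), where the capitals mark the same box read on the other strand.
VIM: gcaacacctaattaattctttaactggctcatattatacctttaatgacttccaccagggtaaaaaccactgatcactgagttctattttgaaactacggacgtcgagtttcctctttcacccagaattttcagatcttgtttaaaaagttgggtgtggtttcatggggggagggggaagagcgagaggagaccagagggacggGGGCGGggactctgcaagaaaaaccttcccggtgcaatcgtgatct
CDH2: ctccctgttcccCCGCCCcctccccagctc
NT5E: cCCGCCCcggccttgacccgggccCCGCCC

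Counted from the base before the start as -1, the GC box began at -46 in VIM, at -177 in CDH2 and at -72 and -49 in NT5E. Both strands of the 250 bases were searched for short motifs. The GC box was present in 42.6% of the 35116 RefSeq windows. The E-box CANNTG was present in 61.8%, and its form that ZEB and SNAI repressors are known to bind, spelled CACCTG, in 17.5%. The TCF/LEF motif CTTTGA was present in 11.2% and the TATA box, searched as TATAAA, in 10.7%. The ZEB and SNAI form is counted in the E-boxes too, and copies of the GC box may overlap. In the VIM window, the NT5E window and the CDH2 window of the first listed start, the GC box was the motif present of these 5. A window of another CDH2 start held an E-box at -97 and a TATA box at -32. CTNNB1 had 3 GC boxes, and the 4 listed starts of CTNNA1 had 9, 4, 0 and 0. Of the CTNNA1 starts with 0 GC boxes, 1 had the TCF/LEF motif at -232 and -40 and an E-box at -51. The other had the TCF/LEF motif at -210 and E-boxes at -221 and -151. Their windows overlap, so some of these matches are the same bases. A match here is a match of letters and says nothing of binding.

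The question put to the cadherins was whether resistance went with a change from E-cadherin to N-cadherin in RNA. CDH1 (ENSG00000039068.18, chromosome 16, 68737225 to 68835548, plus strand) had 14800 counts in CAL27, against 13459 in CAL27/5FU and 15076 in CAL27/OXA. Its level was 74.5, 75.9 and 73.0 FPKM in the same order. The log2 ratio was -0.14 in CAL27/5FU (95% counting interval -0.18 to -0.11) and -0.16 in CAL27/OXA (-0.20 to -0.13), and the first of these changed sign to 0.027 when libraries were scaled by total counts alone. The 3 libraries were therefore close in CDH1, and no direction holds in CAL27/5FU under both scalings. CAL27/OXA against CAL27/5FU was -0.02, with an interval that holds 0.

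CDH2 (ENSG00000170558.8, chromosome 18, 27950966 to 28177446, minus strand) had 185 counts in CAL27, against 1351 in CAL27/5FU and 957 in CAL27/OXA. These were 4.75, 34.5 and 21.5 CPM after scaling, and 1.08, 8.84 and 5.38 FPKM. CAL27 was the low library and CAL27/5FU the high one. The ratio was 7.204-fold in CAL27/5FU (log2 2.85, interval 2.64 to 3.09) and 4.50-fold in CAL27/OXA (log2 2.17, interval 1.95 to 2.42), which placed CDH2 177th and 262nd by rise among the tested genes. CAL27/OXA was lower than CAL27/5FU by a log2 ratio of -0.68 (interval -0.80 to -0.56), which is within 2-fold.

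CDH2 made up 1.23% of the summed CDH1 and CDH2 counts in CAL27 (185 of 14985, exact 95% interval 1.06 to 1.42). It was 9.12% in CAL27/5FU (1351 of 14810, 8.66 to 9.60) and 5.97% in CAL27/OXA (957 of 16033, 5.61 to 6.35). The 3 intervals did not overlap. Per length, CDH1 stood 68.9 times above CDH2 in CAL27, 8.58 times in CAL27/5FU and 13.6 times in CAL27/OXA, so E-cadherin RNA remained the more abundant of the pair in every line.

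CDH3 (ENSG00000062038.13, chromosome 16, 68636189 to 68722616, plus strand) ends 14609 bases before CDH1 and encodes the cadherin of the basal layer of squamous epithelium. It had 20265, 18657 and 22875 counts in CAL27, CAL27/5FU and CAL27/OXA, and 131, 135 and 142 FPKM. It was the most abundant of the 5 cadherins in each library, with 61.1% to 64.0% of their summed FPKM. Its log2 ratio was -0.13 in CAL27/5FU (-0.15 to -0.097) and -0.015 in CAL27/OXA, whose interval holds 0, and both turned positive with total counts (0.045 and 0.12). The ratio of CDH3 to CDH1 in FPKM was 1.76, 1.78 and 1.95.

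CDH13 (ENSG00000140945.16, chromosome 16, 82626803 to 83800640, plus strand) encodes T-cadherin, which has no cytoplasmic tail and is held in the membrane by a lipid anchor. Its counts were 154, 155 and 224 and its levels 1.24, 1.40 and 1.74 FPKM. The log2 ratio was 0.0024 in CAL27/5FU (-0.33 to 0.33) and 0.35 in CAL27/OXA (0.049 to 0.66), both within 2-fold. CDH11 (ENSG00000140937.13, chromosome 16, 64943753 to 65126112, minus strand), a cadherin of mesenchymal and bone-forming cells, had 0 counts in CAL27 and CAL27/5FU and 8 in CAL27/OXA. Set against a floor of 3 counts per library, CAL27/OXA was at least 2.34-fold higher than CAL27 and at least 2.35-fold higher than CAL27/5FU. These folds set the 8 counts against the floor and take no account of counting error in the 8. The Poisson intervals of 8 counts (3.45 to 15.8) and of 0 counts (0 to 3.69) overlap. Overlap alone does not decide whether 2 counts differ, and no ratio interval is given because CDH11 did not pass the filter. The level in CAL27/OXA was 0.0274 FPKM, the lowest value above 0 in the set.

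Summed over the 5 cadherins, FPKM was 208 in CAL27, against 221 in CAL27/5FU and 223 in CAL27/OXA. CDH1 made up 35.8%, 34.3% and 32.8%, CDH2 0.520%, 3.99% and 2.42%, and CDH13 0.597%, 0.633% and 0.781%. CDH1 and CDH3 together thus made up most of the summed FPKM of these 5 cadherins in all 3 lines.

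**Figure D2:**
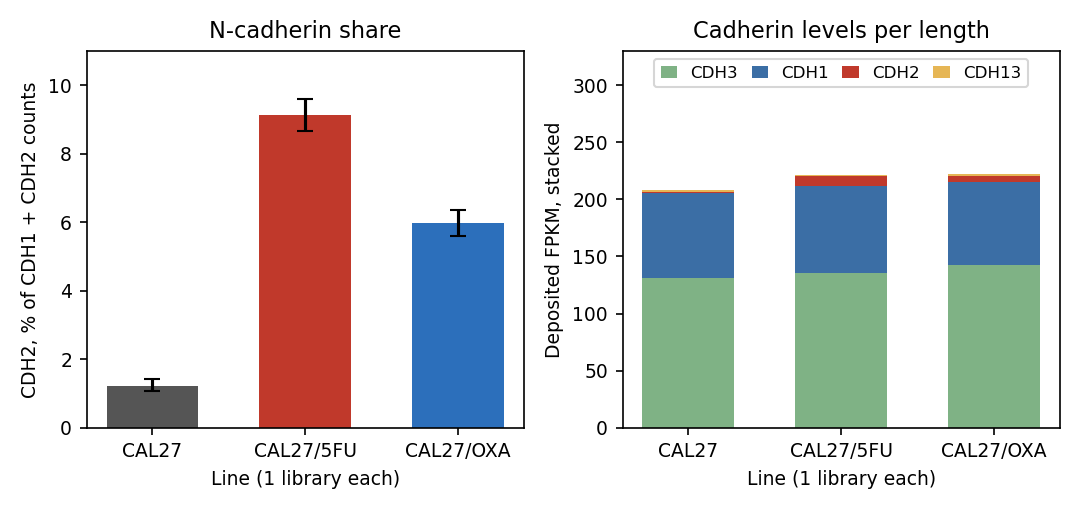
On the left, CDH2 as a percentage of the summed counts of CDH1 and CDH2 in the 3 libraries, with exact 95% binomial intervals, and on the right the deposited FPKM of CDH3, CDH1, CDH2 and CDH13 stacked per library (CDH11, at most 0.0274 FPKM, is left out). CDH3 takes 61.1% to 64.0% of the summed FPKM of the 5 member cadherins in every library. The CDH2 share of CDH1 and CDH2 counts is 1.23% in CAL27, against 9.12% in CAL27/5FU and 5.97% in CAL27/OXA.

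Of the 14 other classical cadherins on the list, 5 passed the filter. In CAL27/5FU 3 were higher and 1 lower, with a median log2 ratio of 2.43 (2.11 with CDH18 at its bound), and in CAL27/OXA 3 were higher and 0 lower, with a median of 1.69. CDH10, a neuronal type II cadherin, had 4 counts in CAL27, against 30 in CAL27/5FU and 223 in CAL27/OXA (log2 ratios 2.43 and 5.06). CDH5, the VE-cadherin of endothelium, had 43, 338 and 163 counts (2.91 and 1.69). CDH18 had 0, 13 and 27 counts, at least 4.31-fold and 7.89-fold higher when CAL27 is set to the floor of 3 counts, while the counting intervals of its ratios begin lower, at log2 1.60 and 2.58. CDH10 and CDH18 passed the filter only through the resistant lines, and the median in CAL27/5FU is the value of CDH10, so these counts and medians are a description and do not bear on a rise of the list. CDH4, the R-cadherin, had 33, 14 and 38 counts (log2 -1.14 and 0.013, the former within 2-fold with total counts). All 4 were low, CDH5 reaching no more than 2.19 FPKM. The other tested gene, CDH24, had 1908, 1798 and 3325 counts and was within 2-fold in both lines (-0.092 and 0.61). Its level of 13.1, 13.8 and 21.9 FPKM was above that of CDH2 in each library.

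The catenins connect these cadherins to actin, and β-catenin is also the co-activator of the WNT pathway that the study followed. CTNNB1 (ENSG00000168036.17, chromosome 3, 41194741 to 41260096, plus strand) had 10426, 8187 and 11219 counts in CAL27, CAL27/5FU and CAL27/OXA, which is 71.4, 62.8 and 73.9 FPKM. CAL27/5FU was the low library. The log2 ratio was -0.36 in CAL27/5FU (-0.40 to -0.31) and -0.084 in CAL27/OXA (-0.12 to -0.045), and the latter became 0.049 with total counts. Neither was near 2-fold.

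CTNNA1 (ENSG00000044115.20, chromosome 5, 138610967 to 138935034, plus strand) had 27898, 21579 and 37783 counts, which is 205, 178 and 267 FPKM. It lay below CAL27 in CAL27/5FU (log2 -0.38, interval -0.40 to -0.35) and above it in CAL27/OXA (0.25, interval 0.23 to 0.27). The ratio of CAL27/OXA to CAL27/5FU was 0.63 on the log2 scale (0.60 to 0.65). CTNND1 (ENSG00000198561.13, chromosome 11, 57753243 to 57819546, plus strand) had 20991, 15623 and 14932 counts, which is 83.6, 69.7 and 57.2 FPKM. Its log2 ratio was -0.43 in CAL27/5FU (-0.46 to -0.40) and -0.68 in CAL27/OXA (-0.71 to -0.65).

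The 3 catenins together reached 310.1 FPKM in CAL27/5FU and 398 FPKM in CAL27/OXA. CTNNA1 held 56.9% of the catenin FPKM in CAL27, against 57.3% in CAL27/5FU and 67.1% in CAL27/OXA, and CTNND1 held 23.2%, 22.5% and 14.4%. The ratio of CTNNA1 to CTNND1 was accordingly 2.45, 2.55 and 4.67. CTNNB1 stood at 0.345, 0.286 and 0.335 of the summed FPKM of CDH1, CDH2 and CDH3. In these proportions CAL27/5FU was close to CAL27 in the balance of CTNNA1 and CTNND1, and CAL27/OXA was close to CAL27 in that of CTNNB1 and cadherins.

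**Figure D3:**
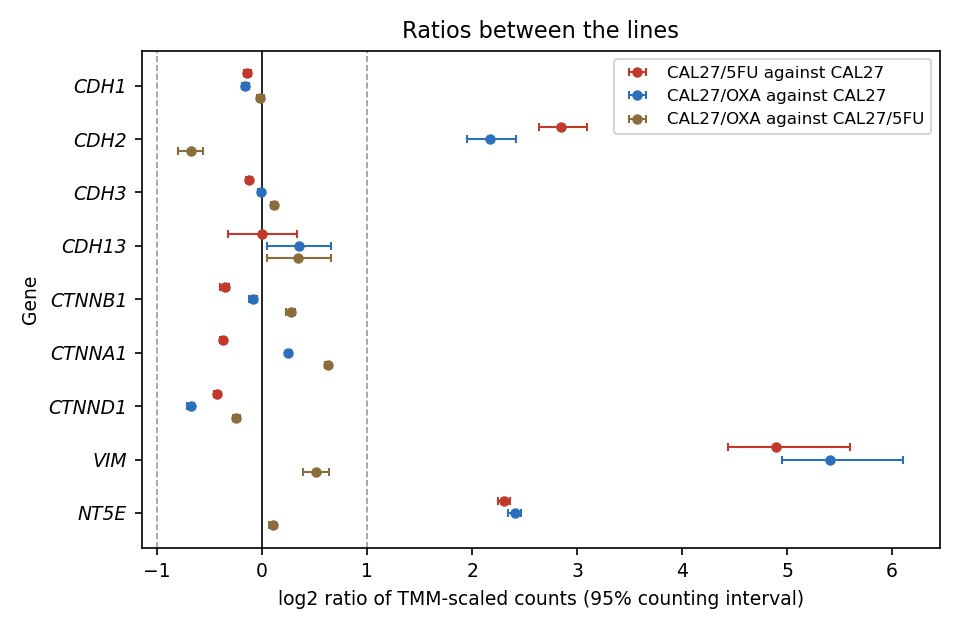
log2 ratio of TMM-scaled counts (horizontal axis) for the 9 tested genes in the 3 comparisons, with 95% counting intervals. Dashed lines mark 2-fold. CDH2, VIM and NT5E lie beyond 2-fold in both resistant lines (VIM at 4.90 and 5.41), and no gene lies beyond 2-fold between CAL27/OXA and CAL27/5FU.

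The adherens junction plaque list held 16 further genes, of which 14 were tested. In CAL27/5FU 2 were higher and 3 lower (median log2 ratio 0.036), beside 8.46% and 6.72% of all tested genes. In CAL27/OXA 2 were higher and 4 lower (median 0.075), beside 6.54% and 9.28%. JUP, plakoglobin, is the close relative of β-catenin that serves both adherens junctions and desmosomes, and it fell from 47950 counts in CAL27 to 14677 in CAL27/5FU and 18727 in CAL27/OXA (log2 -1.71 and -1.55). Its level of 341 FPKM was 4.78 times that of CTNNB1 in CAL27, against 1.86 times in CAL27/5FU and 1.74 times in CAL27/OXA.

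The nectins, immunoglobulin-like adhesion proteins of the same junction, moved in different directions. NECTIN1 had 12802, 3252 and 3157 counts (log2 -1.98 and -2.21), and NECTIN4, an epithelial member, had 1384, 351 and 185 (-1.98 and -3.08). NECTIN3 had 257, 733 and 1248 counts and was higher (1.498 and 2.08). NECTIN2 had 3292, 5447 and 4475 counts and was within 2-fold in both lines (0.72 and 0.25). Thus 2 nectins were lower and 1 higher past 2-fold in both resistant lines.

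PLEKHA7, which binds p120-catenin at the junction, had 568, 1140 and 160 counts and differed between the resistant lines, with log2 ratios of 0.996 and -2.003. The first of these is at the 2-fold limit and passed it under several scalings. CTNNA3, the αT-catenin of heart and testis, had 0, 16 and 33 counts, at least 5.31-fold and 9.65-fold higher when CAL27 is set to the floor of 3 counts, with counting intervals that begin lower, at log2 1.94 and 2.89. It too passed the filter only through the resistant lines.

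**Figure D4:**
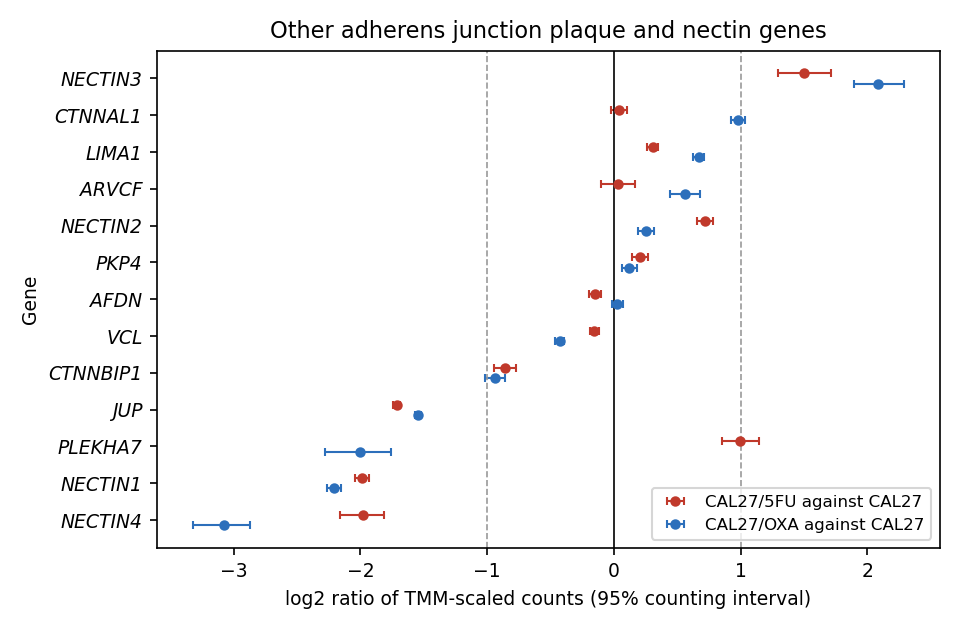
log2 ratio of TMM-scaled counts in CAL27/5FU and CAL27/OXA against CAL27 for 13 further adherens junction genes (CTNNA3, at 0 counts in CAL27, is left out), with 95% counting intervals and dashed lines at 2-fold. NECTIN4, NECTIN1 and JUP lie below the lower line in both lines, NECTIN3 lies above the upper line in both, and PLEKHA7 lies at 0.996 in CAL27/5FU and at -2.003 in CAL27/OXA.

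The 10 genes for processing and turnover of cadherins, which include the proteases FURIN and ADAM10 and receptor phosphatases of the junction, were all tested. In CAL27/5FU 1 was higher and 0 lower (median log2 ratio -0.050), beside 8.46% and 6.72% of all tested genes. In CAL27/OXA 0 were past 2-fold (median -0.33), beside 15.8%. The higher gene was PTPRM, a receptor phosphatase that binds cadherin complexes, with 193 counts in CAL27, against 716 in CAL27/5FU and 231 in CAL27/OXA (log2 1.87 and 0.069).

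Among the 10 tested of 11 CDH1 repressors and epithelial factors, 2 were higher and 4 lower in CAL27/5FU (median log2 ratio -0.40), and 2 higher and 3 lower in CAL27/OXA (median 0.045). Over all tested genes 8.46% were higher and 6.72% lower in CAL27/5FU, and 6.54% and 9.28% in CAL27/OXA. The higher genes were the zinc finger repressors ZEB1, with 75, 275 and 283 counts (1.84 and 1.70), and ZEB2, with 62, 206 and 176 (1.70 and 1.29). Of the epithelial factors, 4 were lower in CAL27/5FU and 3 in CAL27/OXA, while ESRP2 was within 2-fold in both (-0.15 and 0.53). GRHL2, which maintains CDH1 transcription, had 4659, 1686 and 1463 counts (-1.47 and -1.86), and ESRP1, which sets epithelial splicing, had 7191, 2878 and 3327 (-1.33 and -1.30). OVOL1, a repressor of ZEB1, had 404, 147 and 30 counts (-1.45 and -3.85), and OVOL2 had 351, 151 and 234 (-1.21 and -0.77, the latter within 2-fold). SNAI2, the Slug repressor, was within 2-fold in both lines, with 1844, 1174 and 2768 counts (-0.66 and 0.40). Its level was 20.9, 14.9 and 30.2 FPKM, above ZEB1 and ZEB2 in each library. The CDH1 values given above stood beside these differences.

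VIM (ENSG00000026025.15, chromosome 10, 17228259 to 17237593, plus strand) had 27 counts in CAL27, against 863 in CAL27/5FU and 1395 in CAL27/OXA. Its level was 0.693, 22.0 and 31.4 CPM, or 0.302, 10.8 and 15.03 FPKM. CAL27 was far below both other libraries. The ratio was 29.8-fold in CAL27/5FU (log2 4.90, interval 4.44 to 5.60) and 42.4-fold in CAL27/OXA (log2 5.41, interval 4.95 to 6.11), the 21st and 25th highest rise of all tested genes. CAL27/OXA was 1.42-fold above CAL27/5FU (log2 0.51, interval 0.39 to 0.63). By FPKM, VIM ranked 12440th of the 15277 genes with a value above 0 in CAL27, 6403rd of 15409 in CAL27/5FU and 5117th of 15370 in CAL27/OXA.

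Against KRT5, a basal keratin and the other kind of intermediate filament in these cells, VIM remained low. It reached 0.0102% of the KRT5 FPKM in CAL27, against 2.02% in CAL27/5FU and 2.07% in CAL27/OXA, while KRT5 itself went from 2973 FPKM to 536 and 726. Of the 10 other non-keratin filament and linker genes, 5 were tested. In CAL27/5FU 1 was higher and 2 lower (median log2 ratio -0.23), beside 8.46% and 6.72% of all tested genes. In CAL27/OXA 0 were past 2-fold (median -0.18), beside 15.8%. NES, the nestin gene, had 75, 337 and 106 counts (2.13 and 0.30). The neurofilament genes NEFL, with 120, 15 and 76 counts (-2.86 and -0.83), and NEFM, with 235, 74 and 247 (-1.65 and -0.12), were lower in CAL27/5FU, and the NEFM value for CAL27/OXA turned to 0.015 with total counts.

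NT5E (ENSG00000135318.11, chromosome 6, 85449584 to 85495791, plus strand) had 2640 counts in CAL27, against 13104 in CAL27/5FU and 15947 in CAL27/OXA. This is 67.8, 335 and 359 CPM, or 15.8, 88.0 and 91.9 FPKM. Both resistant lines were high and near each other. The ratio was 4.94-fold in CAL27/5FU (log2 2.30, interval 2.24 to 2.37) and 5.29-fold in CAL27/OXA (log2 2.40, interval 2.35 to 2.47), and the resistant lines differed by a log2 ratio of 0.10 (0.067 to 0.13). Among the 3 higher members, NT5E had by far the most counts in CAL27, and so the narrowest interval.

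The enzymes, receptors and transporters that make or handle extracellular ATP and adenosine gave 11 tested genes of 14. In CAL27/5FU 1 was higher and 2 lower (median log2 ratio 0.44), beside 8.46% and 6.72% of all tested genes. In CAL27/OXA 1 was higher and 3 lower (median 0.11), beside 6.54% and 9.28%. ENTPD1, or CD39, which makes the AMP that NT5E uses, had 581, 1230 and 1180 counts (1.07 and 0.83). ADA, which deaminates adenosine, had 4872, 1683 and 2285 counts (-1.54 and -1.28). Per length, NT5E stood at 0.203 of ADA in CAL27, against 2.92 in CAL27/5FU and 2.61 in CAL27/OXA, so that the order of these 2 genes was opposite in CAL27 and in the resistant lines.

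Of the other named genes of that list, ENPP1, an ectoenzyme that splits ATP to AMP, had 182, 251 and 534 counts (0.45 and 1.35). The nucleoside transporter SLC29A2 had 2019, 1267 and 934 (-0.68 and -1.30). ENTPD2 had 614, 256 and 657 (-1.26 and -0.092, the latter 0.041 with total counts). The adenosine receptor ADORA2A had 75, 121 and 39 (0.67 and -1.09, the latter within 2-fold with total counts).

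Of 10 other mesenchymal surface proteins, 6 were tested, with 2 higher and 0 lower in each resistant line and median log2 ratios of 0.49 and 0.83. The share of all tested genes that were higher was 8.46% in CAL27/5FU and 6.54% in CAL27/OXA, and 6.72% and 9.28% were lower. MCAM, or CD146, had 327, 3381 and 4040 counts (3.36 and 3.43). AXL, a receptor tyrosine kinase, had 2864, 6605 and 12103 (1.20 and 1.89). The other 4 tested genes were within 2-fold in both lines. They were CD44 (-0.38 and 0.76), ALCAM (-0.42 and 0.39), ENG (0.36 and 0.36) and PDGFRB (0.62 and 0.89). CD44 was past 2-fold between the resistant lines (log2 1.14 in CAL27/OXA against CAL27/5FU, interval 1.13 to 1.15).

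Markers of other cell types were read beside these values. Of 8 fibroblast markers, 4 were tested and 2 of these were higher and 0 lower in each resistant line, namely COL1A2 (log2 1.71 and 1.03) and LUM (1.76 and 2.66). COL1A1 (-0.38 and -0.59) and PDGFRB (0.62 and 0.89) were within 2-fold in both. The summed FPKM of the 8 was 7.51 in CAL27, against 11.9 in CAL27/5FU and 14.9 in CAL27/OXA. In the same order COL1A1 gave 5.60, 4.83 and 4.08 of these sums, and LUM gave 1.36, 5.24 and 9.54. COL3A1 and THY1, which fibroblasts express strongly, had 0 counts in all 3 libraries. The 5 endothelial markers summed to 0.443, 2.30 and 1.06 FPKM, with 3 tested, of which CDH5 was higher in both lines and 1 other was lower in CAL27/5FU. The leukocyte markers summed to 51.1, 48.9 and 69.1 FPKM, with 2 of 5 tested. CD14 was higher in CAL27/5FU (log2 1.01, interval 0.87 to 1.15) and lower in CAL27/OXA (-1.09). CD68 was within 2-fold in both (-0.79 and 0.50) and gave 41.4, 27.0 and 64.1 FPKM of the sums. The defining gene PTPRC had 2, 0 and 0 counts. The 5 neural markers summed to 34.3, 34.2 and 11.8 FPKM, with 3 tested, of which 1 was higher in each resistant line and 1 lower in CAL27/OXA. In such bulk samples a change in the share of cells that express a gene and a change in RNA per cell cannot be told apart.

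The chromosomal surroundings of the members were described with the 5 nearest tested genes on each side. These can lie far from the member. The 5 at lower coordinates than CDH11, which starts at 64943753, all end by 58734357. The nearest at higher coordinates than CDH2, which ends at 28177446, starts at 30990008. CDH2, VIM and NT5E lay above all 10 of their neighbours in both resistant lines. For NT5E 0 of the 10 neighbours were past 2-fold, and their median log2 ratio was 0.093 in CAL27/5FU and 0.13 in CAL27/OXA. For VIM the neighbours had medians of 0.19 and 0.24, and ST8SIA6 was lower (-3.97 and -3.03). The CDH2 neighbours had medians of -0.079 and -0.096, with DSG3, a desmosomal cadherin, lower (-1.27 and -1.03) and B4GALT6 higher (1.24 and 1.39).

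CDH1 and CDH3 lie side by side and have the same 10 neighbours. In CAL27/OXA all 10 were above 0 and above CDH1 and CDH3, with a median log2 ratio of 0.76, and SLC7A6 (1.10) and UTP4 (1.04) were past 2-fold. In CAL27/5FU the median was 0.17 and 8 of the 10 were above CDH1 and CDH3. The ratios of CDH1 (-0.16) and CDH3 (-0.015) in CAL27/OXA were thus the lowest 2 of these 12 genes on chromosome 16.

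Around CDH11, which lies before CDH3 on chromosome 16, the medians were 0.20 and 0.82. CDH5 (2.91 and 1.69), TK2 (1.29 and 1.56) and CMTM1 (1.60 and 1.17) were higher in both lines and CKLF (1.09) in CAL27/OXA. Around CDH13 they were 0.27 and -0.56, with HSD17B2 higher in CAL27/5FU (1.87) and CMIP (-1.07), MLYCD (-1.06) and MBTPS1 (-1.20) lower in CAL27/OXA. In CAL27/OXA 10 of the 10 neighbours of CDH11 were above 0, and 8 of the 10 neighbours of CDH13 were below it.

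CTNNB1 and CTNND1 had lower point ratios than all 10 of their neighbours in CAL27/5FU, and CTNND1 also in CAL27/OXA. The neighbour medians were -0.013 and 0.041 for CTNNB1, with ZNF620 (1.31) and VIPR1 (-1.23) past 2-fold in CAL27/OXA, and 0.032 and 0.29 for CTNND1 with 0 past 2-fold. CTNNA1 had medians of 0.24 and 0.68, with REEP2 (1.72 and 1.54) and SLC23A1 (1.08 and 1.27) higher in both lines, PROB1 (1.16) in CAL27/5FU and EGR1 (1.66) in CAL27/OXA. All 10 of its neighbours were above 0 in CAL27/OXA, and 8 of them were above CTNNA1.

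**Figure D5:**
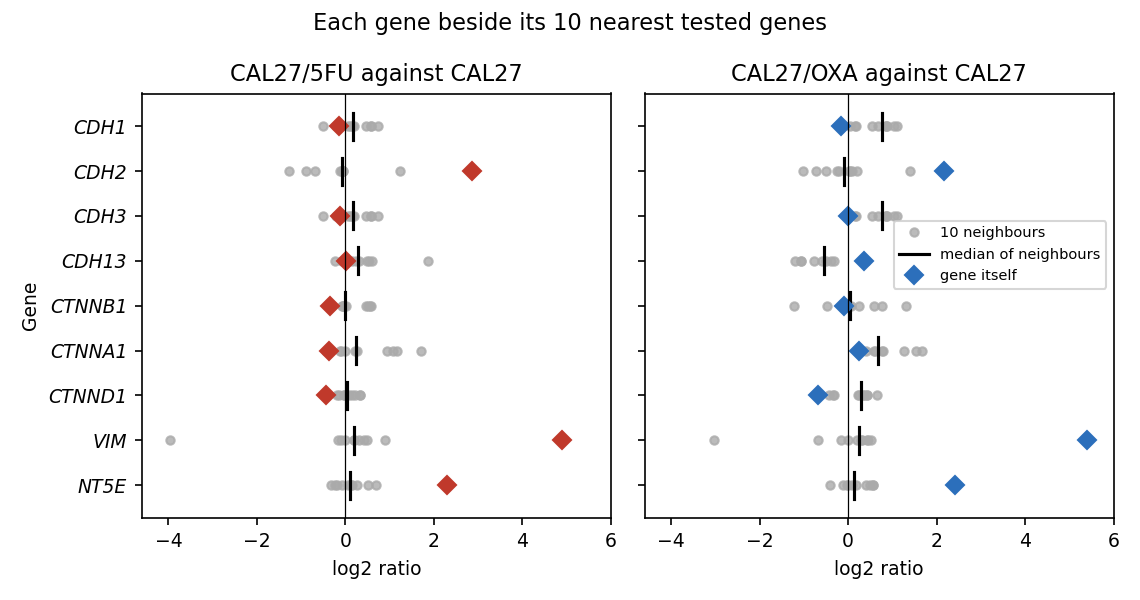
log2 ratio against CAL27 of each member (diamond), of its 10 nearest tested genes (grey points) and their median (black bar), for CAL27/5FU on the left and CAL27/OXA on the right. CDH2, VIM and NT5E lie to the right of all their neighbours, and CDH1 and CDH3 lie to the left of all theirs in CAL27/OXA, where the neighbour median is 0.76.

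The genes whose pair of log2 ratios (CAL27/5FU, then CAL27/OXA, each against CAL27) lay nearest to that of CDH2 were sought by Euclidean distance among the 11541 genes that averaged at least 100 counts. They were GPM6A (2.77 and 2.16, distance 0.083), DUSP4 (2.81 and 2.40, distance 0.24), TSPAN7 (2.65 and 2.01, distance 0.26), CSF2 (2.62 and 1.98, distance 0.30) and MAP1B (3.0002 and 1.84, distance 0.36). For VIM they were NTNG1 (5.08 and 5.45, distance 0.18), BNC2 (5.15 and 5.52, distance 0.28), SP140 (4.77 and 4.81, distance 0.60), FAM196B (4.26 and 5.41, distance 0.64) and DLC1 (4.10 and 5.75, distance 0.87). The likeness rests on 2 ratios that share a library, and the VIM group had 6 to 13 counts each in CAL27.

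Positions are from GENCODE 29 (GRCh38). Exons of VIM share 641 bases with VIM-AS1 and 619 with AL133415.1 on the opposite strand, those of CDH1 share 347 with AC099314.1, those of CDH2 136 with AC110015.1, those of CDH3 694 with AC126773.2 and those of CDH13 141 with AC009119.1, all antisense. Those of CTNNA1 share 445 with the antisense gene LRRTM2, which had 10, 5 and 9 counts, and 75 with AC034243.1. On the same strand, CTNND1 shares 321 with the readthrough gene TMX2-CTNND1 and 289 with AP001931.1, and CDH11 shares 254 with AC010533.1. Whether counting used strand is not given in the sources used here, and without it reads of such antisense partners cannot be told apart. CTNNB1 and NT5E share no exon bases with another gene.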

How the data were processed

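RNA was isolated with TRIzol, libraries were made with a NEBNext Ultra kit and sequenced by Novogene on an Illumina Novaseq. The submitters' processing notes name CASAVA 1.8, HISAT2 2.0.5 and GRCh38. The counting tool, annotation and strandedness are not given in the sources used here. The authors deposited unnormalized read counts by gene symbol for 19220 genes, and FPKM values for 19225 genes, which are counts per gene length and total counts. Each of the 2 tables has 3 further columns of per-sample values that are named after the same lines with a further replicate number. They match no sample label and were left out, so the limit to 1 library per line is that of the labelled columns. The 3 labelled libraries held 41786182 (CAL27), 37297713 (CAL27/5FU) and 43455488 (CAL27/OXA) counts.

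Counts were scaled with TMM factors (edgeR 4.0.16, R 4.3.3), which were 0.932, 1.05 and 1.02. Log2 ratios of CPM used a prior count of 2 and a minimum average of 10 counts per gene. Calls are past 2-fold. With 1 labelled library per line there was no test. Intervals are exact 95% Clopper-Pearson intervals on pairs of counts (SciPy 1.17.1), the floor is 3 counts (0.0675 to 0.0770 CPM), and both cover counting error only, since reads are not independent molecules. The calculation was run on simulated Poisson counts with known changes, which checks the code and not replicate error in these libraries. Positions came from GENCODE 29 for 18769 genes matched by symbol, and promoters from RefSeq (GRCh38.p14).

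The members and lists were chosen with earlier results of these data known, and the lists were written from general knowledge. Named are the 10 members, up to 6 genes per list past 2-fold in a resistant line with the largest ratio, JUP, ZEB1, ZEB2 and SNAI2, the 5 genes nearest to CDH2 and to VIM, and neighbours past 2-fold. Cell type markers and, as examples of their list, FURIN and ADAM10 are named besides. ESRP2, CDH24, NECTIN2, CD44, ALCAM, ENG and PDGFRB were named in their lists after their values were seen. Alternatives were DESeq2 1.42.0 size factors, total counts, upper quartile factors, prior counts of 0.5 and 5, no filter or a mean of 50 counts, FPKM with pseudocounts of 1 and 0.1, a 4-fold limit, the whole interval past 2-fold, and 3 or 10 neighbours per side.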

Additional observations from a re-analysis of the deposited data

Results flagged for a closer look

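The members, the list genes named by the rule given above and the named neighbours were read for opposite directions. Of these, 6 had the 2 resistant lines on opposite sides of the shared CAL27 library with neither counting interval holding 0. The difference was not tested, since each line has 1 library, and the values below are log2 ratios of CAL27/OXA to CAL27/5FU with 95% counting intervals. For CTNNA1 it was 0.63 (0.60 to 0.65), from -0.38 in CAL27/5FU and 0.25 in CAL27/OXA against CAL27. PLEKHA7, the partner of p120-catenin, gave -3.00 (-3.26 to -2.78), from 0.996 and -2.003. ADORA2A gave -1.76 (-2.38 to -1.28), from 0.67 and -1.09. SNAI2 gave 1.05 (0.956 to 1.15), from -0.66 and 0.40, so the resistant lines were past 2-fold from each other while each was within 2-fold of CAL27. MLYCD, a neighbour of CDH13, gave -1.65 (-1.92 to -1.40), from 0.59 and -1.06. VIPR1, a neighbour of CTNNB1, gave -1.79 (-2.03 to -1.56), from 0.55 and -1.23. CD44, ALCAM and ESRP2 were named outside that rule and met the same criterion. CD44 gave 1.14 (1.13 to 1.15), ALCAM 0.81 (0.78 to 0.84) and ESRP2 0.68 (0.61 to 0.74). Each lay below CAL27 in CAL27/5FU and above it in CAL27/OXA.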

How the results depend on the processing

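No paired analysis was possible because 1 labelled library per line was used here, so that replicate error was not measured. Over 7 other scalings, priors and FPKM settings, 0 of 189 member ratios changed side of 2-fold and 13 changed sign, all of them of CDH1, CDH3 or CTNNB1. With total counts the CDH1 ratios were 0.027 (CAL27/5FU) and -0.030 (CAL27/OXA) and those of NT5E 2.47 and 2.54, and upper quartile factors gave -0.10 for CDH1 in CAL27/5FU. FPKM with a pseudocount of 1 gave 0.027 and -0.029 for CDH1, 2.24 and 1.62 for CDH2, 3.18 and 3.62 for VIM and 2.40 and 2.47 for NT5E, since a pseudocount weighs most on low values, and low list genes such as ZEB1 and ZEB2 fell within 2-fold with it. A pseudocount of 0.1 gave 0.027 and -0.030 for CDH1 and 2.47 and 2.53 for NT5E. The share of CDH2 in CDH1 plus CDH2 by FPKM was 1.43%, 10.4% and 6.86%. Total counts gave a median over all tested genes of 0.17 in CAL27/5FU and 0.14 in CAL27/OXA, against -0.0035 and 0.0055 with TMM factors. They moved the share of higher among called genes from 55.7% to 67.2% in CAL27/5FU and from 41.3% to 51.1% in CAL27/OXA.

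Counts of all genes higher and lower also moved. With FPKM and a pseudocount of 1 they were 503 and 311 in CAL27/5FU, 368 and 481 in CAL27/OXA and 165 and 437 between the resistant lines. Without a filter they were 1899 and 1555, 1348 and 1925, and 981 and 1861, and CDH11 became the 1 member past 2-fold between the resistant lines. A mean of 50 counts gave 760 higher in CAL27/5FU and 369 higher between the resistant lines. The whole interval was past 2-fold for 749 and 593, 526 higher in CAL27/OXA, and 319 and 709. Past 4-fold were 404 and 286, 296 and 412, and 167 and 352.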
